A study of Homo sapiens with 4 samples.

Results

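The centrosome and centriole genes described here are 49 of the 26485 gene identifiers in the deposited tables. They were chosen by name: every identifier made of CEP, a number and at most 1 further letter, together with HYLS1, PCNT, CDK5RAP2, NEDD1, STIL, SASS6, PLK4, CENPJ, CNTROB, NIN, PCM1, TUBG1, TUBG2, TUBGCP2 and TUBGCP3. RNA was sequenced from SW1736 and 8505C, cell lines derived from anaplastic thyroid cancer. The 4 libraries were SW1736 with DHT, SW1736 with vehicle (DMSO), 8505C with DHT and 8505C with DMSO, each 1 library taken after 24 h, with DHT at 1.5 µM. DHT is dihydrotanshinone in this series, a tanshinone and not the androgen of that abbreviation. With 1 library per group no difference has a replicate check and no test was run. All differences below are values of single libraries.

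A centrosome is a pair of centrioles surrounded by pericentriolar material, the main site from which animal cells grow microtubules. Centrioles are built once per cell cycle from a cartwheel whose assembly is started by the kinase PLK4, and the older centriole carries appendages that anchor microtubules and dock the centriole at the membrane to form a cilium. The pericentriolar material holds gamma-tubulin ring complexes, which seed microtubules, and it grows before mitosis to serve the spindle poles. Several of the genes, such as PLK4, STIL and CEP55, are known to be expressed most in cycling cells.

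Levels are given in TPM, the share of each gene among all transcripts after scaling by length, so levels of different genes can be compared. A fold is the difference of log2(TPM + 1), which understates the change of low genes, and a gene was counted as higher or lower when it was at least 2-fold apart. The comparison covered the 11706 protein-coding genes whose average over the 4 libraries reached 1 TPM. Of the 49 centrosome genes, 48 passed this filter. The exception was CEP126, at 0.245 TPM in SW1736 with DHT, 0.526 in SW1736 with DMSO, 1.01 in 8505C with DHT and 1.05 in 8505C with DMSO. The tables hold no read numbers, and so counting intervals are not given. The mean read depth over the exons, as deposited, had a median over the 48 genes of 18.4 in SW1736 with DHT, 23.9 in SW1736 with DMSO, 26.8 in 8505C with DHT and 22.2 in 8505C with DMSO. Of the epithelial marker genes, the keratins KRT7, KRT8 and KRT18 stood between 403 and 2081 TPM in all 4 libraries, and EPCAM and CDH1 reached at most 0.184 TPM. The thyroid factor genes differed between the lines: PAX8 was at 0.282 TPM in 8505C with DMSO and 87.1 TPM in SW1736 with DMSO, FOXE1 at 0.101 TPM in 8505C and 60.6 TPM in SW1736 with DMSO, and NKX2-1 at 69.8 TPM in 8505C with DMSO and listed at 0 in SW1736 with DMSO. The thyroid product gene TG reached at most 0.0587 TPM, and TSHR was listed at 0 in all 4 libraries. The endothelial gene CDH5 was at 147 and 128 TPM in 8505C with DHT and DMSO and listed at 0 in both SW1736 libraries, while PECAM1 and VWF reached at most 0.207 TPM in any library.

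In SW1736, DHT-treated cells had lower levels of most centrosome mRNAs, among them those of the centriole proteins HYLS1, CEP97 and SASS6. In TPM as deposited, the gamma-tubulin genes TUBG1 and TUBG2 and the appendage gene CEP83 stood near their vehicle level. Of 48 genes, 19 were at least 2-fold lower (39.6%, beside 15.6% of all genes compared) and 0 were at least 2-fold higher (beside 2.78%). A further 16 were between 1.5-fold and 2-fold lower, which makes 35 at least 1.5-fold lower (beside 38.2% of all genes). Below their DMSO level by any amount were 46 (95.8%, beside 77.8% of all genes). The median log2 fold of the 48 genes was -0.92, beside -0.42 for all genes. Because TPM is a share, a displacement common to most mRNAs enters every fold of this comparison. Relative to the median gene (of those averaging 5 TPM or more), which itself stood at -0.43, the centrosome genes had a median of -0.49. On that scale 6 of them were at least 2-fold lower (12.5%, beside 4.07% of all genes) and 0 higher (beside 4.78%). The log2 folds on that scale ran from -2.47 for HYLS1 to 0.46 for CEP85L, so not all were below the median gene. TUBG1 was at 0.30, TUBG2 at 0.40 and CEP83 at 0.45. In bulk RNA, fewer cells that express a gene and less of its mRNA per cell cannot be told apart. The proliferation marker gene MKI67 was at 76.6 TPM in SW1736 with DHT and 249.7 with DMSO. All 8 proliferation genes of a fixed list were below their DMSO level (beside 77.8% of all genes). Their summed level was 1121 TPM with DHT and 2107.5 TPM with DMSO. Relative to the median gene their log2 folds ran from -1.37 for CCNE2 to 0.07 for CCNB1. On that scale 3 of the 8 were at least 2-fold lower (37.5%, beside 4.07% of all genes). The part of cell cycling in the centrosome values was not tested.

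In 8505C the same mRNAs stood close to their vehicle level. None of the 48 was at least 2-fold lower or higher, beside 0.171% and 0.273% of all genes, and their folds lay between -0.39 for NIN and 0.15 for CEP41. Only NIN and CEP19 were more than 1.2-fold apart (4.17% of the 48, beside 11.9% of all genes compared), both with the lower level in DHT-treated cells. Below their DMSO level by any amount were 35 of the 48 (72.9%, beside 57% of all genes). The median log2 fold was -0.06 over the 48 genes and -0.03 over all genes. Of the 19 genes at least 2-fold lower in SW1736, 18 were within 1.2-fold in 8505C. Most genes of any kind were so too, since only 11.9% of all genes were at least 1.2-fold apart there. No test of that contrast was made. The library of SW1736 with DHT was the lowest of the 4 for 42 of the 48 genes (87.5%, beside 56% of all genes).

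**Figure D1:**
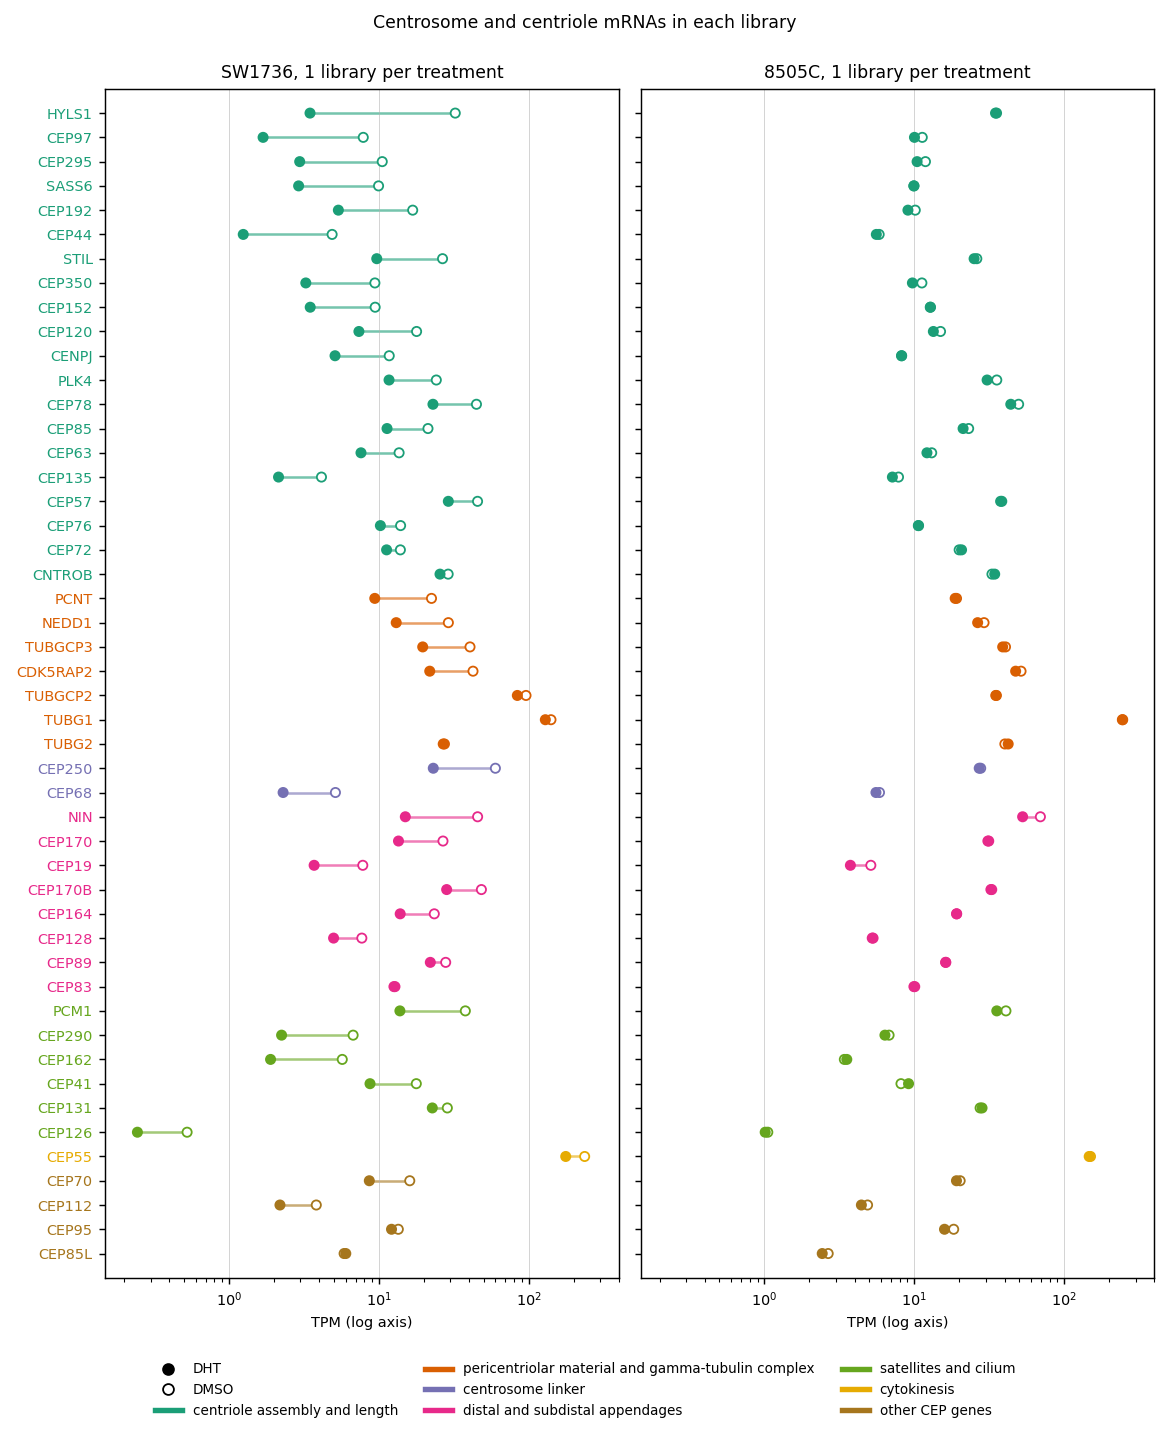
TPM (log axis) of 48 of the 49 centrosome and centriole genes in SW1736 (left) and 8505C (right), with DHT as filled and DMSO as open circles, 1 library each, coloured by role. In SW1736 most filled circles lie left of the open ones, farthest for HYLS1 at 3.48 and 32.4 TPM, while in 8505C the pairs nearly coincide.

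Summed over the 49 genes, the level was 887 TPM in SW1736 with DHT and 1421 TPM with DMSO, or 62.5% of the vehicle level. In 8505C the sum was 1312 TPM with DHT and 1369 TPM with DMSO, or 95.9%. CEP55, TUBG1 and TUBGCP2 carry much of that sum. Without the 4 gamma-tubulin complex genes whose names begin with TUBG, the sum in SW1736 with DHT was 56.3% of that with DMSO.

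**Figure D2:**
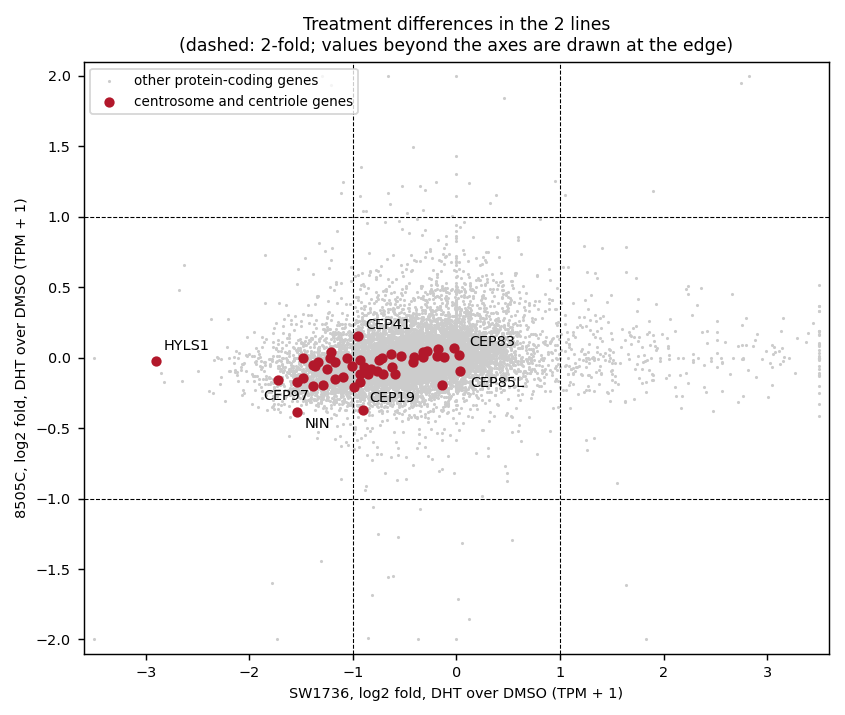
Log2 fold of DHT over DMSO in SW1736 (x axis) and 8505C (y axis) for 48 centrosome genes (red) and the other protein-coding genes (grey), with dashed lines at 2-fold. The red points spread from HYLS1 at -2.90 to CEP85L at 0.03 along the x axis and only from -0.39 to 0.15 along the y axis.

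The largest role group is that of centriole assembly and length. Of its 20 genes, 11 were at least 2-fold lower in SW1736 with DHT (55%, beside 15.6% of all genes), and relative to the median gene 5 were (25%, beside 4.07%). The median log2 fold of the group was -1.12. The summed level of the group was 179 TPM in SW1736 with DHT and 368 TPM with DMSO, and 368 and 388 TPM in 8505C with DHT and DMSO.

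HYLS1, which encodes a centriolar protein needed for cilium formation and is mutated in hydrolethalus syndrome, was the lowest of all 48. The gene lies on chromosome 11 (125883614 to 125900646, plus strand, hg38). It stood at 3.48 TPM in SW1736 with DHT and 32.4 TPM with DMSO, 10.7% of the vehicle level and a log2 fold of -2.90. In 8505C it stood at 34.8 TPM with DHT and 35.4 TPM with DMSO. The library of SW1736 with DHT was thus set apart, and the remaining libraries lay close together. Its mean read depth over exons was 2.28 in SW1736 with DHT and 15.7 with DMSO, so the treated value rests on a low depth.

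The genes that start a new centriole were lower together, by unequal amounts. PLK4, the kinase that triggers duplication, stood at 11.7 TPM in SW1736 with DHT and 24.2 TPM with DMSO, a log2 fold of -0.99 that fell just short of the threshold. STIL, which binds and activates PLK4, stood at 9.69 TPM with DHT and 26.6 TPM with DMSO in SW1736. SASS6, which forms the hub of the cartwheel, stood at 2.92 TPM with DHT and 9.96 TPM with DMSO. For these 3 genes the 8505C libraries were nearly level, at 30.6 TPM with DHT and 35.5 TPM with DMSO for PLK4, 25.1 and 26.1 TPM for STIL, and 9.94 and 9.95 TPM for SASS6. The log2 folds in SW1736 were -1.37 for STIL and -1.48 for SASS6.

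CEP192 and CEP152, the scaffold proteins that bring PLK4 to the mother centriole, were lower in SW1736 as well. CEP192 stood at 5.37 TPM with DHT and 16.8 TPM with DMSO there (log2 fold -1.48), and CEP152 at 3.49 TPM with DHT and 9.45 TPM with DMSO (-1.22). CEP63 and CEP57, which act with CEP152, were lower by less, at -0.77 and -0.63. In 8505C, CEP192 was at 9.07 TPM with DHT and 10.2 TPM with DMSO, and CEP152 was at 12.8 TPM in both libraries.

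Genes for the length and maturation of centrioles ranged widely. CEP97, whose product caps the distal end together with CCP110, stood at 1.69 TPM in SW1736 with DHT and 7.87 TPM with DMSO (log2 fold -1.72). CEP295, needed to turn a new centriole into a centrosome, stood at 2.97 TPM with DHT and 10.5 TPM with DMSO (-1.54). CEP44, with a like role, was at 1.25 TPM with DHT and 4.88 TPM with DMSO (-1.39). These are low levels, at which the added pseudocount shrinks the fold, and CEP44 with DHT was 25.5% of its DMSO level. CENPJ, which drives elongation, was at 5.10 and 11.7 TPM in SW1736 with DHT and DMSO and at 8.23 TPM in both 8505C libraries, and its log2 fold in SW1736 was -1.06. CEP120, a partner of CENPJ, had a log2 fold of -1.17 and the centriolar microtubule-anchoring gene CEP350 one of -1.29. The group was not uniform, since CEP76, which limits reduplication, was at -0.41, CEP72 at -0.28 and CNTROB, which encodes centrobin of the daughter centriole, at -0.17. CEP78 (-0.93), CEP85 (-0.85), which binds STIL, and CEP135 (-0.71), which joins the cartwheel to the wall, lay between.

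Of the 7 genes of the pericentriolar material and the gamma-tubulin complex, 3 were at least 2-fold lower in SW1736 with DHT (42.9%, beside 15.6% of all genes), and relative to the median gene 0 were (beside 4.07%). PCNT, which encodes the scaffold pericentrin, stood at 9.40 TPM in SW1736 with DHT and 22.5 TPM with DMSO (log2 fold -1.17), and at 18.7 and 19.1 TPM in 8505C with DHT and DMSO. NEDD1, the adaptor that attaches gamma-tubulin ring complexes, was at 13.1 TPM with DHT and 29.1 TPM with DMSO in SW1736 (-1.10), and CDK5RAP2, which activates those complexes, was at -0.93, short of the threshold. The ring subunit gene TUBGCP3 passed the threshold narrowly (-1.01). Relative to the median gene these log2 folds were -0.75 for PCNT, -0.67 for NEDD1, -0.50 for CDK5RAP2 and -0.58 for TUBGCP3. TUBG1, the main gamma-tubulin gene, stood at 129 TPM with DHT and 141 TPM with DMSO in SW1736, and at 246 and 245 TPM with DHT and DMSO in 8505C. Its paralogue TUBG2 stood at 26.9 TPM with DHT and 27.4 TPM with DMSO in SW1736, and at 42.3 and 40.2 TPM with DHT and DMSO in 8505C. The ring subunit gene TUBGCP2 was at 84.0 TPM with DHT and 95.9 TPM with DMSO in SW1736. Log2 folds in SW1736 were -0.12 for TUBG1, -0.03 for TUBG2 and -0.19 for TUBGCP2, and relative to the median gene they were 0.30, 0.40 and 0.24, so the sign of these 3 depends on the scaling. TUBG1 exceeded TUBG2 by 4.80 times in SW1736 with DHT, 5.14 times in SW1736 with DMSO, 5.81 times in 8505C with DHT and 6.08 times in 8505C with DMSO.

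The linker that holds the centrosome pair together before mitosis is represented by CEP250 and CEP68. CEP250, the C-Nap1 anchor of the linker, stood at 23.1 TPM in SW1736 with DHT and 59.9 TPM with DMSO (log2 fold -1.34, or -0.91 relative to the median gene), and at 27.1 and 27.7 TPM in 8505C with DHT and DMSO. CEP68 was at 2.30 TPM with DHT and 5.13 TPM with DMSO in SW1736 (-0.90).

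Among 8 appendage genes, 1 was at least 2-fold lower in SW1736 (12.5%, beside 15.6% of all genes), also relative to the median gene (12.5%, beside 4.07%). This was NIN, which encodes ninein, an anchor of microtubules at subdistal appendages. It stood at 15.0 TPM in SW1736 with DHT and 45.6 TPM with DMSO (log2 fold -1.54), and at 52.8 TPM in 8505C with DHT and 69.4 TPM with DMSO, where it had the lowest fold of the 48 (-0.39). CEP170, a further subdistal gene, was at -0.94 in SW1736 and its relative CEP170B at -0.75. CEP19 was at -0.91 in SW1736 and -0.37 in 8505C, and CEP128, a subdistal gene, was at -0.54 and 0.02. Of the distal appendage genes, whose products dock the centriole to the membrane, CEP164 was at -0.72 and CEP89 at -0.33 in SW1736. CEP83, which recruits the others, stood at 12.8 TPM with DHT and 12.6 TPM with DMSO there. Its log2 fold was 0.02, or 0.45 relative to the median gene.

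Of the genes for satellites and the cilium, 3 of the 6 that passed the filter were at least 2-fold lower in SW1736 (50%, beside 15.6% of all genes), and relative to the median gene 0 were (beside 4.07%). PCM1, the scaffold of centriolar satellites, stood at 13.8 TPM with DHT and 37.8 TPM with DMSO (log2 fold -1.39), and at 35.5 and 40.9 TPM in 8505C with DHT and DMSO. CEP290, a protein of the ciliary transition zone, was at 2.25 TPM with DHT and 6.74 TPM with DMSO in SW1736 (-1.25). CEP162, which helps to place CEP290, was at 1.90 TPM with DHT and 5.70 TPM with DMSO (-1.21). In contrast CEP131, another satellite gene, was at 22.7 TPM with DHT and 28.6 TPM with DMSO (-0.32). CEP41, needed for the glutamylation of ciliary tubulin, was at -0.95. CEP126 fell below the filter and its values are given above.

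CEP55 acts at the midbody in the last step of cell division and was, by TPM, the most abundant of the 49 in SW1736. It stood at 177 TPM with DHT and 236 TPM with DMSO in SW1736 (log2 fold -0.42), the same fold as the median of all genes, and at 147 and 149.9 TPM in 8505C with DHT and DMSO. The other CEP genes were CEP70 (-0.83), CEP112 (-0.60), CEP95 (-0.14) and CEP85L (0.03), none of them 2-fold apart. CEP112 had the lowest mean read depth of the 48 as deposited, between 0.575 in SW1736 with DHT and 1.08 in 8505C with DHT, so its values rest on a low depth. The deposited depth did not follow TPM between genes, however. In SW1736 with DHT, CEP112 was at 2.19 TPM and CEP44 at 1.25 TPM, yet CEP44 had the higher depth of 1.58.

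Of 72 further centrosome genes outside the name rule, all above the filter, 67 were below their vehicle level in SW1736 by any amount (93.1%, beside 77.8% of all genes). At least 2-fold lower were 15 (20.8%, beside 15.6%) and 0 were higher (beside 2.78%), with a median log2 fold of -0.58, beside -0.42 for all genes. Relative to the median gene 2 were lower (2.78%, beside 4.07%) and 1 was higher (beside 4.78%), so the shares lower were near those of all genes. In 8505C 0 were 2-fold apart, beside 0.171% of all genes lower and 0.273% higher, with a median of -0.05, beside -0.03 for all genes. CCP110, the partner of CEP97, stood at 6.70 TPM in SW1736 with DHT and 19.4 TPM with DMSO (-1.40). ALMS1 was at -1.40 and the delta-tubulin gene TUBD1 at -1.07. AKAP9, which anchors kinases and gamma-tubulin complexes at the centrosome and Golgi, stood at 4.61 TPM with DHT and 20.6 TPM with DMSO (-1.94), and the satellite and ciliary genes CCDC66 and KIAA0586 were both at -1.25. Of the spindle pole genes, ASPM was at -2.65, BORA, an activator of the mitotic kinases, at -1.32 and NUMA1 at -1.26. In the augmin complex, which branches spindle microtubules, HAUS3 was at -1.12, HAUS8 at -0.69 and HAUS2 at -0.53. The ring complex subunit TUBGCP6 was at -1.22, TUBGCP4 at -0.998 just inside 2-fold, and TUBGCP5 at -0.80. MZT2B, a small ring complex subunit chosen after its values were seen, stood higher, at 248 TPM in SW1736 with DHT and 149.9 TPM with DMSO, and PLK1, likewise chosen afterwards, was at 222 and 215 TPM with DHT and DMSO.

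Long mRNAs were lower than short ones in SW1736 with DHT, among all genes and among the centrosome genes. The longest protein-coding mRNA in GENCODE 29 had a median of 5.09 kb over the 48 centrosome genes, beside 3.43 kb over all 11682 genes with a length. With all genes divided into 3 equal groups by length, the group with the longest mRNAs (from 4493 bases) held 28 of the 48. There the median log2 fold was -1.12 for the centrosome genes and -0.72 for all genes, and 15 of the 28 were at least 2-fold lower, beside 29.4% of all genes in that group. In the middle group the medians were -0.60 for 15 centrosome genes and -0.46 for all genes, and 3 of the 15 were lower, beside 12.5%. In the shortest group they were -0.28 for 5 centrosome genes and -0.14 for all, and HYLS1, with an mRNA of 2.06 kb, was the only 1 of the 5 at least 2-fold lower, beside 4.9%. Across the 48 genes the fold in SW1736 had a Spearman's rho of -0.50 with mRNA length and 0.39 with GC content, beside -0.43 and 0.30 across all genes. The other cell line had correlations of the same signs, at much smaller folds. Its Spearman's rho across the 48 genes was -0.37 with mRNA length and 0.35 with GC content. Across all genes the values there were -0.26 and 0.47. From the shortest to the longest group its median log2 folds were 0.01, -0.03 and -0.07, for centrosome genes and for all genes. These are descriptions across genes of the same libraries, and the part of mRNA length in the centrosome values was not tested. CEP85L, with an mRNA of 7.67 kb and a log2 fold of 0.03 in SW1736, lay against the trend in that line.

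**Figure D3:**
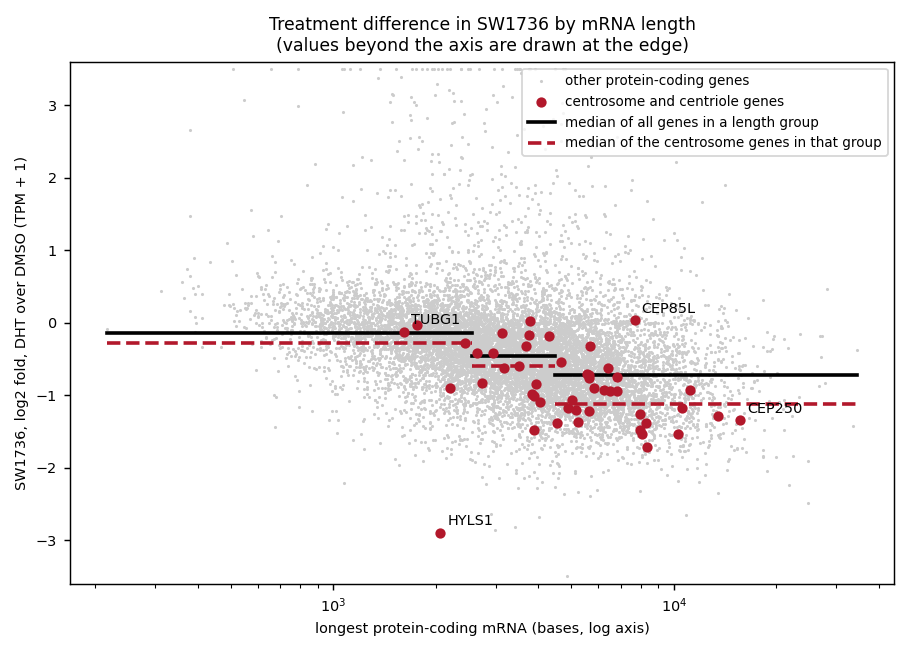
Log2 fold of DHT over DMSO in SW1736 against the length of the longest mRNA (log axis) for 48 centrosome genes (red) and the other genes (grey), with medians of all genes (black) and of the centrosome genes (dashed red) in 3 equal groups by length. Both medians are lower in longer groups, at -1.12 and -0.72 for centrosome genes and all genes in the longest group, and HYLS1 lies far below at -2.90.

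Reads of neighbouring genes can be mixed where genes overlap, since the sources do not state whether strand was used in counting. Of the 49 genes, 10 overlapped a protein-coding gene in the tables, in every case on the opposite strand. The last 7.16 kb of HYLS1 overlap PUS3, a pseudouridine synthase gene, which stood at 8.21 TPM in SW1736 with DHT and 12.9 TPM with DMSO (log2 fold -0.59, beside -2.90 for HYLS1). CEP44 and FBXO8 overlap at their starts by 575 bases, and their folds in SW1736 were -1.39 and -0.60. CEP290 and C12orf29 overlap at their ends by 1.15 kb, with folds of -1.25 and -0.33. CEP63 and ANAPC13, which overlap at their starts, were alike at -0.77 and -0.72. TUBG1 was the opposite case: FAM134C, which overlaps its start by 88 bases, stood at 8.41 TPM with DHT and 28.2 TPM with DMSO in SW1736 (-1.63), beside -0.12 for TUBG1. In the remaining pairs with a measured neighbour, CEP68 and RAB1A were at -0.90 and -0.33, CEP76 and PSMG2 at -0.41 and -0.25, and TUBGCP2 and ZNF511 at -0.19 and -0.01. CEP76 lies wholly within the span of PSMG2, an overlap of 40.8 kb. PSMG2 stood at 97.0 TPM in SW1736 with DHT and 115 TPM with DMSO, beside 10.2 and 14.0 TPM for CEP76.

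**Figure D4:**
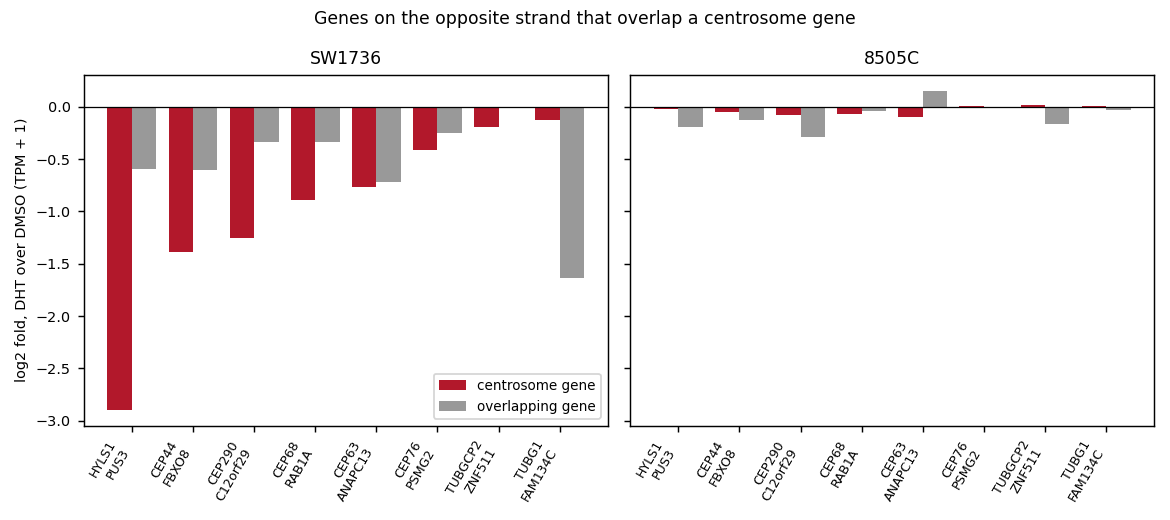
Log2 fold of DHT over DMSO in SW1736 (left) and 8505C (right) for 8 centrosome genes (red bars) and the gene overlapping each on the opposite strand (grey bars), 1 library per treatment. In SW1736 HYLS1 (-2.90) stands far below PUS3 (-0.59), whereas FAM134C (-1.63) stands far below TUBG1 (-0.12).

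Similar sequences elsewhere bear on few of the genes. Of 49 mRNAs, 32 shared no stretch of 50 bases with a transcript of another gene in GENCODE 29, and 5 shared over 5% of their 50-base windows. These were CEP170, with 44.2% of its windows in the pseudogene CEP170P1, which was listed at 0 TPM in all 4 libraries, TUBG1 and TUBG2, with 29.1% and 26.5% of their windows in each other, and SASS6 (6.34%) and TUBGCP3 (6.05%), whose windows were shared with the transcripts AC093019.2 and LINC00431. The split between TUBG1 and TUBG2 is therefore less certain than their sum.

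Promoter sequence was read for the genes with an entry in RefSeq's table (GRCh38.p14), 250 bases before to 50 after the start nearest the gene's 5′ end in the deposited tables. That covered 43 of the 48 centrosome genes and 9676 of all genes compared. Motifs of factors known for cell cycle promoters were searched on both strands. The CHR motif TTTGAA was held by 30.2% of centrosome windows and 9.28% of all windows, the E2F motif (TTCCCGC or TTGGCGC) by 37.2% and 15.3%, the NF-Y motif CCAAT by 48.8% and 37.4%, and the NRF1 motif GCATGCG by 2.33% and 6.68%. The motifs did not set the lower genes apart from the other centrosome genes. Of 17 genes with a window that were at least 2-fold lower in SW1736, 5 held CHR, 7 held E2F and 8 held NF-Y, and of 26 other genes 8, 9 and 13 did. A match of letters is a description and not evidence of a binding site.

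5 windows are printed because they show motifs and folds side by side, from 5′ to 3′ with motif letters in capitals. CEP192 (chr18:12991112-12991411, plus strand, log2 fold -1.48 in SW1736) and CEP55 (chr10:93496362-93496661, plus strand, -0.42) hold all of CHR, NF-Y and E2F, with CHR on the minus strand as TTCAAA. HYLS1 (chr11:125887418-125887717, plus strand, -2.90) holds NF-Y and E2F, with an E2F match on the minus strand that overlaps an NF-Y match, and its RefSeq start lies 4054 bases inside the gene as tabulated. NIN (chr14:50831113-50831412, minus strand, -1.54) and CEP83 (chr12:94459818-94460117, minus strand, 0.02) hold none of the motifs and so have no capitals.
CEP192: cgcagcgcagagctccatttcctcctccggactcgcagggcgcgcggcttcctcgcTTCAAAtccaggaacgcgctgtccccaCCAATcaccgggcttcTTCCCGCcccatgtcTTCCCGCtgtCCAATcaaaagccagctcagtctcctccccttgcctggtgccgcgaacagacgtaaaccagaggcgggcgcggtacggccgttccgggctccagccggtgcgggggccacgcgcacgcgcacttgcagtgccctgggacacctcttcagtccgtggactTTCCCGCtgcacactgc
CEP55: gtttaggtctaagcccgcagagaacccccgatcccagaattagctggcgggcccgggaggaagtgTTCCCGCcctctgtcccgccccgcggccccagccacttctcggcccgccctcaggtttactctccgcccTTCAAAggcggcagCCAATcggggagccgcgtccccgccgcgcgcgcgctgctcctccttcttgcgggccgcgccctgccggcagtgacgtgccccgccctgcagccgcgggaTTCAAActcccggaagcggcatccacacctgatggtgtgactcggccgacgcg
HYLS1: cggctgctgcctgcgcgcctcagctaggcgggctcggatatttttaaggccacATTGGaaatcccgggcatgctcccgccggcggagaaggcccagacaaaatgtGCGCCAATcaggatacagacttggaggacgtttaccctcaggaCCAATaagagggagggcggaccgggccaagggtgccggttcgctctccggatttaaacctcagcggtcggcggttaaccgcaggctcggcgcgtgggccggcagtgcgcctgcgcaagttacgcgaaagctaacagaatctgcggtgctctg
NIN: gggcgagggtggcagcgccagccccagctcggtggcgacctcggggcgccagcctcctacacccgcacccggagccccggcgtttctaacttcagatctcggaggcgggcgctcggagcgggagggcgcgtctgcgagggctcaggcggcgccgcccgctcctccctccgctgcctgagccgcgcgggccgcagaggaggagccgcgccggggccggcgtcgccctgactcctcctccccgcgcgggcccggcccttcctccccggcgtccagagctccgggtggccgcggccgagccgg
CEP83: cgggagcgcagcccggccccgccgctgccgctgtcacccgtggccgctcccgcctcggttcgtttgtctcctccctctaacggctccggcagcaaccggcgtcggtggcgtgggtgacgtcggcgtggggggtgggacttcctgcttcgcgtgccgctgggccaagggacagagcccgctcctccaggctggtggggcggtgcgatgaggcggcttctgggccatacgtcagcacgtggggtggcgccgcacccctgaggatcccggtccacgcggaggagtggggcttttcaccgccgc
CEP192 and CEP55 hold the same motifs at folds of -1.48 and -0.42, and NIN and CEP83 hold none at -1.54 and 0.02. CEP295 (-1.54) and CEP152 (-1.22), whose windows are not printed, also hold all of CHR, NF-Y and E2F. These windows are picked examples, and a link between motifs and folds was not tested.

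The untreated lines were compared as the background to these values. Of 48 genes, 3 were at least 2-fold lower in 8505C with DMSO than in SW1736 with DMSO (6.25%, beside 12.6% of all genes) and 0 at least 2-fold higher (beside 9.97%). At 1.5-fold 8 were lower (beside 24.2% of all genes) and 3 higher (beside 18.9%). TUBGCP2 stood at 35.0 TPM in 8505C with DMSO and 95.9 TPM in SW1736 with DMSO (log2 fold -1.43). ZNF511, whose start overlaps TUBGCP2, was at 45.7 TPM in 8505C and 90.4 TPM in SW1736 (-0.97). CEP250 stood at 27.7 TPM in 8505C and 59.9 TPM in SW1736 (-1.08), and CEP41 at 8.15 and 17.8 TPM in 8505C and SW1736 (-1.04, or -0.999 and just inside 2-fold relative to the median gene, which leaves 2 of 48 lower, beside 11.8% of all genes). The highest fold was that of TUBG1, at 245 TPM in 8505C and 141 TPM in SW1736 (0.79), followed by CEP135 (0.78). For CEP250 the library of SW1736 with DMSO was the high one of the 4, and the 3 others lay between 23.1 and 27.7 TPM. CEP41 was alike, with 17.8 TPM in SW1736 with DMSO and 8.15 to 9.16 TPM in the other libraries.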

How the data were processed

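Per the labels' protocols, libraries were prepared from 1 µg of total RNA per sample with the Universal Plus mRNA-Seq kit. The tools were bcl2fastq 2.20 and StringTie and the build was hg38, per the submitters' processing notes, and for the aligner, annotation, strand setting and StringTie version nothing is given in the sources used here. The tables deposited by the authors give TPM, FPKM and coverage per gene, per the file headers. TPM as deposited sums to 1000000 in each library, FPKM as deposited is scaled by fragments and length, and the coverage deposited by the authors is a mean read depth per exon base that is not scaled between libraries.

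Values of an identifier with several rows were summed. Of 26485 identifiers, 25362 were matched to a gene of RefSeq, by symbol, by GENCODE 29 name or by synonym, and 19031 were protein-coding. The fold, the filter and the threshold are given in the results, and the median gene is that of the protein-coding genes averaging 5 TPM or more. The name rule, the role lists and the other lists were chosen with earlier results of these data known. Named were all genes at least 2-fold apart, up to 4 of each role list and 3 of each further list with the largest fold in SW1736, and PLK4, STIL, SASS6, CENPJ, PCNT, TUBG1, TUBG2, PCM1 and HYLS1, with the rest given briefly. A gene of the name rule enters the counts, medians and sums but its values are not reported here. The lines were not taken as replicates of each other, so no test was run. Computation used Python 3.11.15, pandas 2.3.3, numpy 2.4.6 and scipy 1.17.1, and the counting of genes was tested on simulated data. The alternatives were other pseudocounts, filters, features and thresholds, median centring, FPKM, and genes without overlaps.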

Additional observations from a re-analysis of the deposited data

How the results depend on the processing

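Of the 48 genes, the number at least 2-fold lower in SW1736 with DHT was 19 as reported, 6 with a pseudocount of 5, 6 relative to the median gene, 9 with FPKM in place of TPM, 12 of 33 among genes with 1 row and no overlap, and 35 at a threshold of 1.5-fold. The share of all genes lower was 15.6% as reported and, in that order, 5.88%, 4.07%, 6.02%, 15.9% and 38.2%. The median log2 fold was -0.92 as reported, -0.67 with a pseudocount of 5, -0.49 relative to the median gene and -0.65 with FPKM. With a pseudocount of 0.1 the number rose to 23 (beside 20.8% of all genes) and the median was -0.97. The summed FPKM was 511866 in SW1736 with DHT and 438583 with DMSO. Between the untreated lines, 1 gene was lower in 8505C with a pseudocount of 5 (beside 7.49% of all genes), and 8 were lower and 3 higher at 1.5-fold (beside 24.2% and 18.9%), against 3 and 0 as reported. With a pseudocount of 0.1, 4 were lower in 8505C (beside 14.8% of all genes). In 8505C with DHT, 0 centrosome genes were apart at the threshold used under each of these alternatives. The shares of all genes lower and higher there were 0.308% and 0.777% with a pseudocount of 0.1, and 0.111% and 0.111% with 5. They were 0.171% and 0.29% relative to the median gene, and 0.162% and 0.205% with FPKM. Among genes with 1 row and no overlap they were 0.0825% and 0.137%, and at 1.5-fold 0.538% and 1.26%. No paired analysis was possible because the labels give no replicate numbers and each line and treatment has 1 library. A fit with line as a block was not run, since the lines were not taken as replicates of each other, and no library could be left out without losing a group.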
